A study of Mus musculus with 12 samples.

Results

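The 9 complement genes described here are 6 components and regulators that are secreted or work in plasma (C3, C4b, Cfb, Cfi, C1ra and C1s1), the membrane regulator Cd55, and the receptors C3ar1 and C5ar1. They were chosen as a list of gene symbols without a threshold on any measured value, but with earlier results of these data known. All 9 are among the 55487 genes in the RNA-seq count table. The study set kidneys of control mice beside kidneys of mice lacking ALR (augmenter of liver regeneration, gene symbol Gfer) in the proximal tubule, with and without ischemia/reperfusion (I/R), a model of acute kidney injury. RNA of 12 kidney cortex samples was sequenced, 3 per group, so that the values below compare complement mRNA between kidneys and say nothing about complement protein or its activation.

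The groups were named as in the study. Ctrl mice carried the label WT and had a sham operation, PT-KO mice carried the label ALR knockdown and had a sham operation, and the Ctrl+I/R mice and the PT-KO+I/R mice, of the same genotypes, had 22 min of bilateral renal ischemia and 24 h of reperfusion. Per the study's methods the knockout was made with floxed ALR (one loxP site separating exons 1 and 2, the other ahead of exon 3) and Ggt1-Cre, whose promoter is active in the proximal tubule, and the controls were floxed mice without Cre, so that floxed alleles were shared by all 4 groups. Per the study, the mice were of a mixed C57BL/6 background and 6 to 8 weeks old. Since only proximal tubule cells lose the gene, the other cells of a kidney keep it.

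Library totals ran from 12165089 to 23123693 counts. Ctrl libraries 1 and 2 held 22402 and 19755 counts of the female transcript Xist and 0 counts of Y-linked genes, whereas Xist reached no more than 11 counts in the other 10, each of which had Y-linked counts, so that Ctrl was the only group of both sexes. Ctrl library 3 has its group from its column name, because its number is not among those of the control sample titles. The targeted gene, Gfer, was not lower in the knockout libraries: its level was 12.8 ± 1.52 CPM in Ctrl and 17.6 ± 2.34 CPM in Ctrl+I/R kidneys, against 14.04 ± 3.68 CPM in PT-KO and 22.0 ± 0.674 CPM in PT-KO+I/R kidneys (SD, n = 3), where CPM are counts scaled by library size and TMM. Counts over the whole gene, in all cells of the tissue, do not single out the deleted exon, and their part in these values was not tested. The study itself reported decreased ALR expression in PT-KO kidneys. The defining proximal tubule markers were among the abundant transcripts of the libraries, with a summed level of 13523 to 14160 CPM in Ctrl.

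Complement is a cascade of plasma and membrane proteins. In the classical pathway, C1q with the proteases C1r and C1s cleaves C4 and C2, in the alternative pathway factor B amplifies the cleavage of C3, and both end in the split of C3 and C5 into small peptides (C3a and C5a) that act on receptors of immune and other cells. Most circulating components come from the liver, but tubular cells and infiltrating leukocytes of an injured kidney can make several of them, C3 above all, and regulators such as factor I and CD55 limit the cascade on host cells.

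Levels of different genes were compared as CPM per kb of exon. In Ctrl, Cfb was the highest at 6.89 ± 1.74 CPM per kb (SD, n = 3), followed by C1s1 at 6.38 ± 0.573, C1ra at 4.48 ± 0.170, Cfi at 3.89 ± 1.04, Cd55 at 3.42 ± 1.31 and C3 at 2.94 ± 1.25. The ranges of Cfb and C1s1 overlapped, as did those of C1ra, Cfi and Cd55 and those of Cfi, Cd55 and C3. C4b at 0.861 ± 0.320, C3ar1 at 0.420 ± 0.0552 and C5ar1 at 0.187 ± 0.0440 were lower, with no overlap between neighbours. In PT-KO, Cfb was again the highest at 10.2 ± 1.10, without overlap with Cd55 at 5.94 ± 1.46, whose range overlapped that of C1s1 at 5.28 ± 0.617. After I/R in control mice C3 led the order at 46.7 ± 13.9 CPM per kb, above Cfi at 11.6 ± 3.33 without overlap, while the range of Cfi lay within that of C4b (10.1 ± 9.28). In PT-KO+I/R, C3 was again the highest at 7.91 ± 4.57 but its range overlapped that of C1s1 (3.65 ± 1.52), and C4b (0.498 ± 0.0825) stood above only C3ar1 (0.182 ± 0.0855). The level plot shows the values of every kidney.

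**Figure D1:**
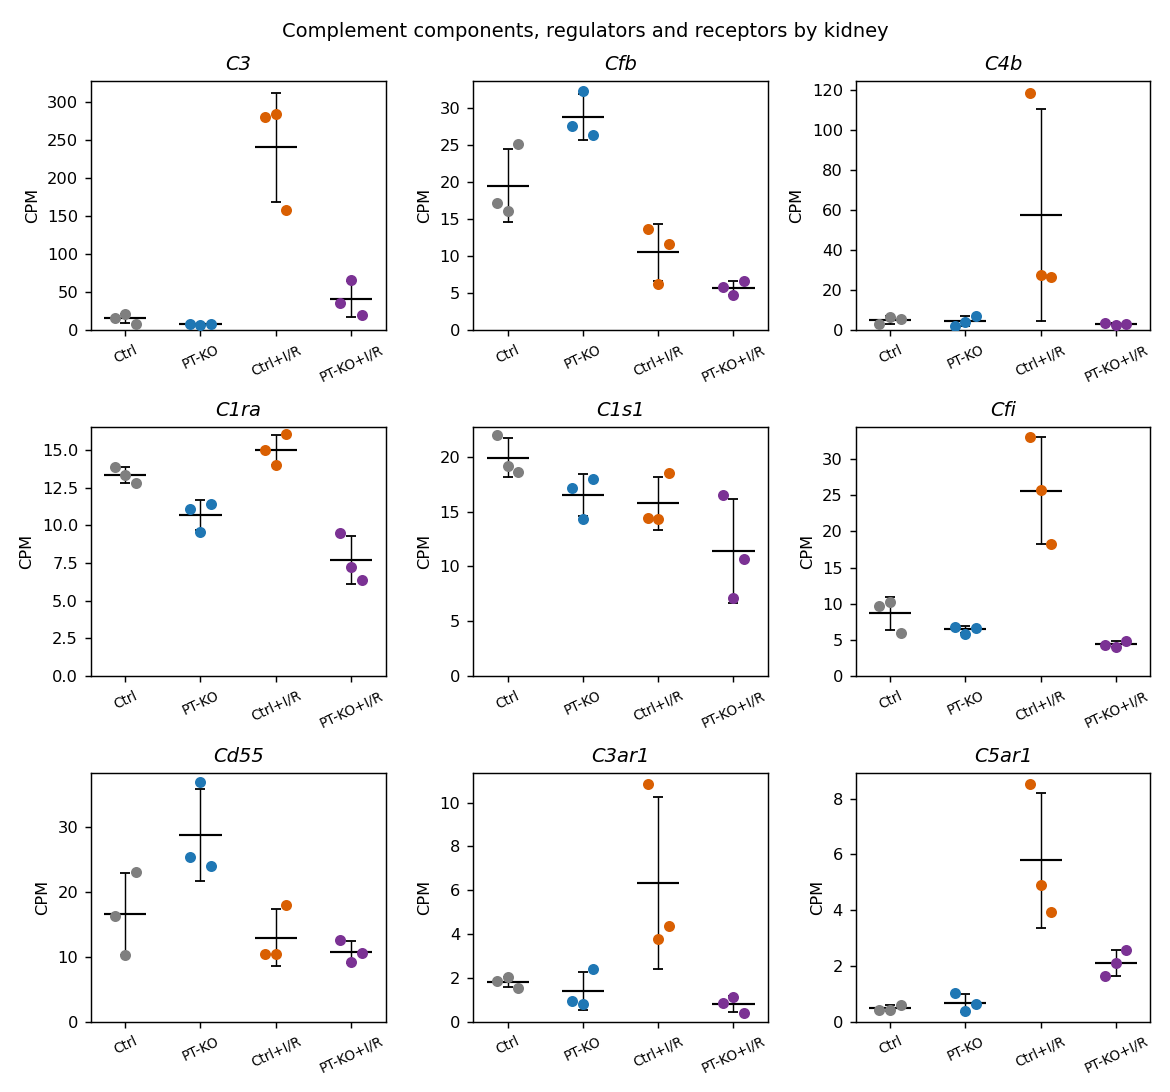
Each panel plots the level of 1 gene in CPM (counts scaled by library size and TMM) for the 3 kidneys of each group as points, with the mean as a horizontal line and the SD as error bars. C3 lay between 158 and 284 CPM in Ctrl+I/R kidneys and between 20.2 and 66.3 CPM in PT-KO+I/R, and C4b lay between 26.4 and 118 CPM in Ctrl+I/R kidneys and at no more than 7.06 CPM in the other groups.

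C3 is the central component whose cleavage all pathways share. It stood at 15.9, 21.2 and 8.37 CPM in Ctrl libraries 1, 2 and 3 and at 8.33, 6.68 and 7.73 CPM in PT-KO libraries 1, 2 and 4. After I/R it reached 280, 284 and 158 CPM in Ctrl+I/R libraries 1, 2 and 4 but 35.5, 66.3 and 20.2 CPM in PT-KO+I/R libraries 2, 3 and 4. The I/R kidneys were above the sham kidneys of their own genotype, and the highest PT-KO+I/R kidney was below the lowest Ctrl+I/R kidney. C3 rose 16.0-fold with I/R in control mice (log2 fold change 3.998 ± 0.39 SE, adjusted p = 0.0028 in edgeR's quasi-likelihood test) and 5.38-fold in PT-KO mice (log2 2.43 ± 0.37, adjusted p = 0.00023). After I/R it was 5.91-fold lower in PT-KO+I/R than Ctrl+I/R kidneys (log2 -2.56 ± 0.42, adjusted p = 0.0023). The difference between the I/R effects of the genotypes was -1.56 ± 0.58 on the log2 scale and missed the threshold (adjusted p = 0.059). With DESeq2 this adjusted p was 0.047, with no low-count filter it was 0.013, the call was also gained without any of 3 of the 12 libraries, and with sex as a covariate the difference was -2.41 (adjusted p = 0.031) and the rise in control mice 4.84 log2 (adjusted p = 0.0035). The sex term takes up the Xist libraries, so that in this fit Ctrl library 3 is the only sham control and is assumed to vary like the other groups, here and for each value with this covariate below. In bulk tissue, fewer cells of a type and less RNA per cell cannot be told apart, for C3 as for the genes that follow.

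The C3 gene is at chr17:57203970-57228136 on the minus strand (mm10, GENCODE M21), and none of its 50-base exon windows occurs in another gene. Promoter sequences of RefSeq (GRCm38.p6), the 250 bases before a gene's RefSeq start, were on hand for 6 of the 9 genes (C3, C3ar1, C5ar1, Cd55, C1ra and C1s1) and not for C4b, Cfb and Cfi. They are shown for C3 and C3ar1, which rose with I/R in control mice, and for Cd55, which did not pass the test there. The C3ar1 sequence is printed to 246 bases, since the 4 bases next to its RefSeq start lie within the GENCODE gene. Capitals mark matches, on either strand, to 5 letter patterns named after factors of injury and inflammation.
C3, chr17:57228137-57228386, minus strand: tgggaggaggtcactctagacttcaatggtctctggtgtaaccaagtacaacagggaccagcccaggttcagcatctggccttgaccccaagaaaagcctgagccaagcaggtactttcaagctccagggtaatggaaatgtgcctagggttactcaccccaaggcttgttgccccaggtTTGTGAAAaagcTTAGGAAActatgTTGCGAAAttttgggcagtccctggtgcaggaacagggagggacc
C3ar1, chr6:122856162-122856407, minus strand: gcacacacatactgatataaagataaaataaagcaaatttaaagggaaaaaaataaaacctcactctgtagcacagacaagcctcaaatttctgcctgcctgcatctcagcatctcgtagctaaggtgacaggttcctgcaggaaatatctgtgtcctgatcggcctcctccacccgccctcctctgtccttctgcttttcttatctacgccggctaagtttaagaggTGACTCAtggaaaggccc
Cd55, chr1:130462745-130462994, minus strand: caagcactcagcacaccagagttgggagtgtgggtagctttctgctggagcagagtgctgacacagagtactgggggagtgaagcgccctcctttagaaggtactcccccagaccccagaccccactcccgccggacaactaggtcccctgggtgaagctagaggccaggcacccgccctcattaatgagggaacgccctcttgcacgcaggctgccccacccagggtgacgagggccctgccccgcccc
The C3 sequence held 3 matches to the C/EBP-type pattern TTNNGNAA, at -70, -58 and -45 from the RefSeq start, which overlapped neither each other nor a match to another pattern. At least 1 such match was found in 36.8% of the 32851 RefSeq promoter windows, and at least 3 in 2.61%. The C3ar1 sequence held 1 match to the AP-1-type pattern TGANTCA at -22 from its RefSeq start (the 4 bases not printed included), a pattern found in 6.75% of windows. The Cd55 sequence held no match to these or to the STAT-type pattern TTCNNNGAA (7.02% of windows), the NF-kB-type pattern (3.90%) or the IRF-type pattern of GAAA repeated after any 2 bases (2.98%). Of the windows not printed, that of C1s1, which was not called with I/R in control mice, also held C/EBP-type matches, at -242 and -52. The C/EBP-type matches in the windows of C1ra (-72 and -29) and C5ar1 (-157) lie inside the GENCODE gene, because the RefSeq start of these genes is within it. A match is a string of letters and shows no binding.

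Cfb encodes factor B, the protease subunit of the alternative pathway C3 convertase. With I/R it went the other way from C3, although both were called lower in PT-KO+I/R than Ctrl+I/R kidneys. Its level was 17.2, 16.1 and 25.1 CPM in Ctrl, 27.5, 32.2 and 26.3 CPM in PT-KO, 13.6, 6.21 and 11.6 CPM in Ctrl+I/R and 5.73, 4.67 and 6.64 CPM in PT-KO+I/R, in the library order given above. Sham kidneys were above I/R kidneys in both genotypes, PT-KO was the highest group, and PT-KO+I/R overlapped Ctrl+I/R through Ctrl+I/R library 2. Cfb fell 5.11-fold with I/R in PT-KO mice (log2 -2.35 ± 0.16, adjusted p = 9.3e-07), whereas in control mice the log2 fold change was -0.88 ± 0.31 (adjusted p = 0.080), which was called with DESeq2 (adjusted p = 0.029), no low-count filter (0.040), 1 fit of all libraries (0.021) and sex as a covariate (0.025). The I/R effects differed by -1.45 ± 0.37 log2 (adjusted p = 0.012), or -1.08 with sex as a covariate, which was not called (adjusted p = 0.084). After I/R, Cfb was 1.86-fold lower in PT-KO+I/R than Ctrl+I/R kidneys (log2 -0.90 ± 0.30, adjusted p = 0.042), a call that was lost when any of 5 of the 6 libraries was left out. Cfb lies at chr17:34856374-34862518 (minus strand), close to C4b on the same chromosome. In all, 73.0% of its 50-base exon windows are shared with the overlapping gene Gm20547, which held 0 counts in every library, so that how reads of this locus were assigned is uncertain.

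C4b encodes complement C4, which the classical and lectin pathways cleave on the way to C3. Its level was 2.87, 6.36 and 5.49 CPM in Ctrl, 2.08, 4.15 and 7.06 CPM in PT-KO, 118, 27.5 and 26.4 CPM in Ctrl+I/R and 3.34, 2.40 and 2.77 CPM in PT-KO+I/R. Ctrl+I/R lay above all 9 other libraries, and PT-KO+I/R lay within the range of the sham kidneys. Ctrl+I/R library 1 was more than 4 times the level of its group's other libraries, yet these were also above every library outside the group. C4b rose 11.9-fold with I/R in control mice (log2 3.58 ± 0.68, adjusted p = 0.018), a call that was lost without Ctrl library 1 or without Ctrl library 2, and stood at 3.39 with sex as a covariate (adjusted p = 0.043). Without Ctrl+I/R library 1 the rise was 2.46 log2, still called. In PT-KO mice the log2 fold change was -0.66 ± 0.39 (adjusted p = 0.16), which was called lower only without PT-KO library 1. After I/R, C4b was 20.8-fold lower in PT-KO+I/R (log2 -4.38 ± 0.67, adjusted p = 0.0017), and -3.28 log2 without Ctrl+I/R library 1, still called. The I/R effects differed by -4.23 ± 0.88 log2 (adjusted p = 0.0040), the widest difference among the 9 genes, and by -3.13 log2 without Ctrl+I/R library 1, still called. The gene (chr17:34728380-34743882, minus strand) shares 34.6% of its exon windows with its near copy C4a, whose own level was 0 to 2.32 CPM and whose log2 fold changes passed the test in none of the comparisons, so that reads split between the copies cannot be told apart.

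C1ra and C1s1 encode the proteases C1r and C1s, which C1q activates. C1ra stood at 13.9, 13.3 and 12.9 CPM in Ctrl, 11.1, 9.59 and 11.4 CPM in PT-KO, 15.0, 14.05 and 16.1 CPM in Ctrl+I/R and 9.50, 7.26 and 6.38 CPM in PT-KO+I/R. The groups did not overlap in any of the 4 comparisons, although the steps between them were small. After I/R, C1ra was 1.97-fold lower in PT-KO+I/R than Ctrl+I/R kidneys (log2 -0.98 ± 0.18, adjusted p = 0.0035). It fell 1.40-fold with I/R in PT-KO mice (log2 -0.49 ± 0.18, adjusted p = 0.035), a call lost without any of 4 of the 6 libraries and with total counts (adjusted p = 0.066), and its log2 fold change in control mice was 0.18 ± 0.12 (adjusted p = 0.30). The difference between these effects was -0.65 ± 0.21 log2 (adjusted p = 0.033) and fell short of the threshold when any of 9 of the 12 libraries was left out, with no low-count filter (adjusted p = 0.052) and with sex as a covariate (adjusted p = 0.080).

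With all libraries and the low-count filter, edgeR called C1s1 in no comparison. It stood at 22.0, 19.2 and 18.7 CPM in Ctrl, 17.2, 14.3 and 18.0 CPM in PT-KO, 14.4, 14.4 and 18.5 CPM in Ctrl+I/R and 16.5, 7.08 and 10.7 CPM in PT-KO+I/R. Its log2 fold change was -0.34 ± 0.14 with I/R in control mice (adjusted p = 0.13), -0.56 ± 0.26 in PT-KO mice (adjusted p = 0.078) and -0.49 ± 0.29 between the I/R groups (adjusted p = 0.20), where the 95% interval of -1.15 to 0.18 does not show that the groups were alike. Without PT-KO+I/R library 2, the highest of its group, C1s1 was called lower with I/R in PT-KO mice (-0.90) and between the I/R groups (-0.82), and without Ctrl+I/R library 4 it was called lower with I/R in control mice (-0.47). In PT-KO mice its fall with I/R was also called by DESeq2 (adjusted p = 0.049) and by edgeR with no filter (adjusted p = 0.026). The protease genes are neighbours at chr6:124512405-124523443 (C1ra, plus strand) and chr6:124530345-124542359 (C1s1, minus strand). C1ra shares 48.0% of its exon windows with C1rb and C1s1 shares 21.8% with C1s2. Over all other genes the shares are 50.8% for C1ra and 35.1% for C1s1. C1rb and C1s2, with at most 0.61 CPM in a library, had too few counts to be tested.

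Among the regulators, Cfi encodes factor I, the plasma protease that inactivates C3b and C4b. Its level was 9.70, 10.2 and 5.99 CPM in Ctrl, 6.81, 5.82 and 6.63 CPM in PT-KO, 33.0, 25.7 and 18.3 CPM in Ctrl+I/R and 4.28, 4.05 and 4.84 CPM in PT-KO+I/R. Like C4b, it was raised in every Ctrl+I/R kidney, but PT-KO+I/R lay below all other libraries. Cfi rose 2.997-fold with I/R in control mice (log2 1.58 ± 0.27, adjusted p = 0.014), which lost its call without Ctrl library 1 and was 2.10 with sex as a covariate (adjusted p = 0.0043). It fell 1.47-fold in PT-KO mice (log2 -0.56 ± 0.18, adjusted p = 0.023), a call lost without any of 3 of the 6 libraries and in 1 fit of all libraries (adjusted p = 0.069). After I/R it was 5.89-fold lower in PT-KO+I/R (log2 -2.56 ± 0.23, adjusted p = 0.00029), between -2.75 and -2.34 log2 when single libraries were left out. The difference between the I/R effects, -2.12 ± 0.33 log2 (adjusted p = 0.00087), kept its call without any single library. Cfi lies at chr3:129835884-129875332 (plus strand) and shares no exon window with another gene.

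Cd55 encodes decay-accelerating factor, a membrane protein that speeds the decay of C3 convertases. It stood at 16.3, 10.3 and 23.1 CPM in Ctrl, 25.4, 37.0 and 24.1 CPM in PT-KO, 10.5, 10.4 and 18.0 CPM in Ctrl+I/R and 12.6, 9.21 and 10.6 CPM in PT-KO+I/R. PT-KO kidneys were above all others, and the I/R groups overlapped each other. Cd55 fell 2.71-fold with I/R in PT-KO mice (log2 -1.44 ± 0.18, adjusted p = 8.1e-05), and in control mice the log2 fold change was -0.36 ± 0.33 (adjusted p = 0.46). The I/R effects differed by -1.06 ± 0.41 log2, which missed the threshold (adjusted p = 0.070) but passed it with DESeq2 (adjusted p = 0.043), total counts (0.038), no low-count filter (0.029), and without Ctrl library 3 or Ctrl+I/R library 2. Between the I/R groups the log2 fold change was -0.27 ± 0.25 (adjusted p = 0.39, 95% interval -0.85 to 0.30), and it turned to 0.033 without Ctrl+I/R library 4. The gene is at chr1:130439027-130462744 (minus strand) and shares 8.00% of its exon windows with Cd55b, which held 0 counts in all libraries.

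The receptor genes had few counts, so that counting error weighs more on them. C3ar1 encodes the receptor of C3a, found on macrophages and other myeloid cells. Its level was 1.86, 2.02 and 1.55 CPM in Ctrl, 0.95, 0.81 and 2.39 CPM in PT-KO, 10.9, 3.76 and 4.36 CPM in Ctrl+I/R and 0.86, 1.11 and 0.39 CPM in PT-KO+I/R, where the last group stands for 6 to 25 counts per library. Ctrl+I/R lay above all other libraries, with library 1 the highest, as it was for C4b and Cfi. C3ar1 rose 3.54-fold with I/R in control mice (log2 1.82 ± 0.44, adjusted p = 0.032), but the call was lost without any of 4 of the 6 libraries, the 3 Ctrl libraries and Ctrl+I/R library 1, and with sex as a covariate (2.03, adjusted p = 0.10). Without Ctrl+I/R library 1 the value was 1.16 log2. In PT-KO mice the log2 fold change was -0.78 ± 0.52 (adjusted p = 0.21), and it ran from -1.18 (without PT-KO+I/R library 3) to -0.14 (without PT-KO library 4) when single libraries were left out, never called. After I/R, C3ar1 was 7.93-fold lower in PT-KO+I/R (log2 -2.99 ± 0.54, adjusted p = 0.0034), and -2.35 log2 without Ctrl+I/R library 1, still called. The I/R effects differed by -2.58 ± 0.74 log2 (adjusted p = 0.021), a call lost without Ctrl+I/R library 1, PT-KO library 4 or PT-KO+I/R library 4 (-1.94 log2 at the smallest, without PT-KO library 4) and with sex as a covariate (-2.80, adjusted p = 0.061).

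C5ar1 encodes the receptor of C5a, which is abundant on neutrophils and also present on macrophages. Its level was 0.40, 0.43 and 0.61 CPM in Ctrl, 1.01, 0.38 and 0.61 CPM in PT-KO, 8.53, 4.91 and 3.92 CPM in Ctrl+I/R and 1.63, 2.09 and 2.58 CPM in PT-KO+I/R. Sham kidneys of both genotypes held 7 to 16 counts, close to the low-count filter, which the gene also passed in the comparison of the sham groups alone. With no filter its log2 fold changes with I/R were 3.61 in control and 1.67 in PT-KO mice, both called. Unlike C3ar1, it was higher in the I/R kidneys of both genotypes without overlap. C5ar1 rose 12.05-fold with I/R in control mice (log2 3.59 ± 0.41, adjusted p = 0.0044) and 3.17-fold in PT-KO mice (log2 1.66 ± 0.40, adjusted p = 0.0044). After I/R it was 2.76-fold lower in PT-KO+I/R (log2 -1.47 ± 0.35, adjusted p = 0.011). The I/R effects differed by -1.91 ± 0.59 log2 (adjusted p = 0.029), which was lost without any of 7 of the 12 libraries and with sex as a covariate (-1.57, adjusted p = 0.16). C3ar1 (chr6:122847138-122856161) and C5ar1 (chr7:16246743-16259540), both on the minus strand, share no exon window with another gene.

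All 9 genes passed the low-count filter in every comparison. The 4 comparisons were then read over the 9 genes together, each beside the share of all tested genes that was called. They share groups of kidneys with each other, so that they are not independent. With I/R in control mice 5 of the 9 were called, all higher (C3, C4b, Cfi, C3ar1 and C5ar1), where 19.4% of 15567 tested genes were called, 11.4% higher and 7.97% lower. The median log2 fold change of the 9 was 1.58, beside -0.01 over all tested genes. In 6 genes (these 5 and C1ra) all I/R libraries were above all sham libraries, as in 21.3% of tested genes, and in 2 (C1s1 and Cfb) below, as in 22.3%. The count fell to 2 without Ctrl library 1 and to 3 without Ctrl library 2, and was 4 higher and 1 lower (Cfb) with sex as a covariate, where 2029 of 16168 genes were called (1066 higher and 963 lower).

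With I/R in PT-KO mice 6 of the 9 were called, but in both directions: C3 and C5ar1 rose, and Cfb, Cd55, Cfi and C1ra fell. Here 65.5% of 15155 tested genes were called, 32.9% higher and 32.7% lower, so that 6 of 9 is near the background share. The median log2 fold change was -0.56 for the 9 and 0.01 for all tested genes. Groups did not overlap in these same 6 genes, 2 higher (35.9% of tested genes) and 4 lower (35.0%).

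The I/R effects were set side by side and their difference tested as a knockout by I/R interaction on all 12 libraries. The interaction was called in 6 of the 9 (C4b, C3ar1, Cfi, C5ar1, Cfb and C1ra), each time with the lower I/R effect in PT-KO mice, where 30.6% of 16168 tested genes were called, 16.4% in that direction and 14.3% in the other. C3 (-1.56), Cd55 (-1.06) and C1s1 (-0.21) did not pass the test. The median over the 9 was -1.56 log2, beside -0.02 over all tested genes. Left-out libraries moved the count between 3 and 7, the lowest without Ctrl+I/R library 1 or PT-KO library 4, and the count was 3 (C3, C4b and Cfi) with sex as a covariate. The plot of I/R effects gives each gene in both genotypes.

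**Figure D2:**
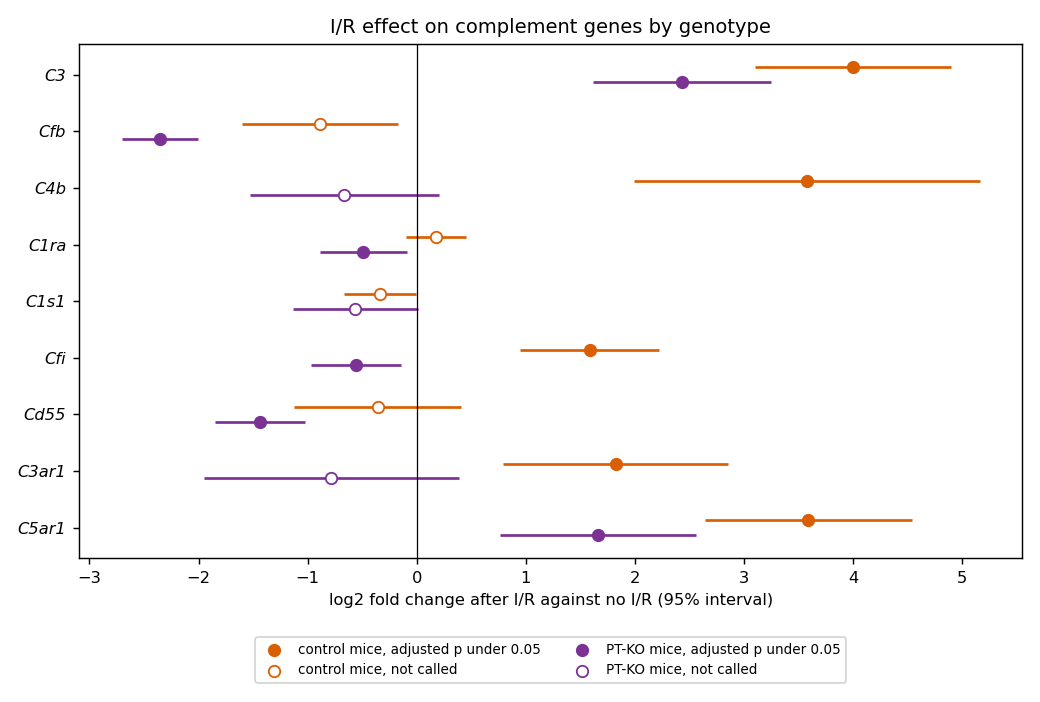
The log2 fold change with I/R is plotted for each of the 9 genes in control mice and in PT-KO mice, with unadjusted 95% intervals as horizontal lines and filled points for an adjusted p under 0.05. C4b stood at 3.58 in control mice and -0.66 in PT-KO mice, while Cfb and Cd55 lay at -2.35 and -1.44 in PT-KO mice.

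After I/R, 7 of the 9 were called between the genotypes and all 7 were lower in PT-KO+I/R (C4b, C3ar1, C3, Cfi, C5ar1, C1ra and Cfb, in order of size), where 46.9% of 15281 tested genes were called, 24.4% lower and 22.5% higher. The median log2 fold change was -1.47, beside -0.0049 over all tested genes. In 6 of them, all but Cfb, the groups did not overlap, as in 29.1% of tested genes in that direction. Without single libraries 6 or 7 were called, and C3, C4b, Cfi, C3ar1, C5ar1 and C1ra kept their call each time. C1s1 and Cd55 were the genes that did not pass. Total counts in place of TMM left the 7 calls standing but shifted the median of all genes by -0.21 log2.

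Without I/R, edgeR called 0 of the 9 genes and 0 of 15291 tested genes between PT-KO and Ctrl, a background of 0%, whereas 2573 genes (16.8%) had an unadjusted p under 0.05. DESeq2 called 458 genes and 1 of the 9, C3. The largest values were -0.9996 ± 0.31 log2 for C3 (adjusted p = 0.21), 0.79 ± 0.28 for Cd55 (adjusted p = 0.24) and 0.56 ± 0.17 for Cfb (adjusted p = 0.22). Cfb and Cd55 were higher in PT-KO without overlap (9.76% of tested genes), and C3, C1ra and C1s1 lower (11.2%). In each of these genes Ctrl library 3, the only Ctrl library with Y-linked counts, was the nearest to PT-KO. It stood at 25.1 CPM for Cfb, 23.1 for Cd55 and 8.37 for C3, beside the nearest PT-KO values of 26.3, 24.1 and 8.33 CPM. Sex and genotype are thus not separated in this comparison. Without Ctrl library 3, edgeR called 1930 genes and 4 of the 9 (C3 and Cfi lower, Cfb and Cd55 higher), and with sex as a covariate 0 of both. Leaving out that library changes the sexes and the set of Ctrl libraries at once, which cannot be told apart.

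Of 44 other complement genes, 24 to 27 had enough counts to be tested in a comparison. With I/R in control mice 9 of 26 were called higher and 4 lower, where 11.4% and 7.97% of all tested genes were called in these directions. The largest changes were rises of Itgam (log2 4.05), Itgax (2.12) and Itgb2 (1.92), which encode subunits of the leukocyte receptors for C3 fragments, and of Clu (2.89), the fluid-phase inhibitor clusterin, and falls of the collectin Colec11 (-3.46) and the terminal component C8a (-2.64). The calls of Colec11, Itgax, Itgb2 and Itgam were each lost without at least 1 of the 6 libraries (3 of them for Colec11, 2 for Itgax and Itgb2, and 1 for Itgam). With I/R in PT-KO mice 5 of 27 were called higher and 12 lower, which together is near the 65.5% of all tested genes called there. Itgam (4.02), Clu (2.72) and the lectin pathway protease Masp1 (2.78) rose, while the complement receptor Cr2 (-3.78), C8a (-3.41) and the membrane inhibitor Cd59b (-2.51) fell. Itgam held 2 to 6 counts in sham libraries, Colec11 0 to 2 in Ctrl+I/R and Cr2 1 to 3 and Cd59b 3 to 12 in PT-KO+I/R libraries, so that these fold changes rest on few reads. With single libraries left out, the fall in PT-KO mice ran from -3.16 to -1.91 log2 for Cd59b (the ends without PT-KO+I/R libraries 2 and 3) and from -4.09 (without PT-KO+I/R library 3) to -3.12 for C8a, called each time.

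Between the I/R groups, 2 of 24 other complement genes were called higher and 8 lower, which together is below the 46.9% of all tested genes called there (22.5% higher and 24.4% lower). Their median was -0.86 log2. Lower in PT-KO+I/R were Itgax (-2.98), Cpn1 (-2.49), the carboxypeptidase subunit that inactivates C3a and C5a, the mannose-binding lectin Mbl1 (-1.97), the C1r-like protease C1rl (-1.94), the recognition subunit C1qc (-1.94) and Itgb2 (-1.83). The interaction was called in 10 of 27, 2 higher and 8 lower, where 30.6% of all tested genes were called (14.3% and 16.4%). The called genes were led by Itgax (-3.57), Mbl1 (-2.32), C1rl (-2.14), C1qb (-1.92), Itgb2 (-1.81) and C1qc (-1.70). Without I/R 0 of 26 were called by edgeR. The plot by role shows the complement genes called lower after I/R. In the recognition and classical pathway they were 2 of 3 members (C4b and C1ra) and 5 of 8 tested others (Mbl1, C1rl and the 3 C1q subunits). Another 1 of these 8 was called higher. Among regulators they were 1 of 2 members (Cfi) and 1 of 9 tested others (Cpn1), with 1 other called higher. The rest were C3 and Cfb, the anaphylatoxin receptors C3ar1 and C5ar1, and 2 of 3 tested C3 fragment receptor subunits (Itgax and Itgb2).

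**Figure D3:**
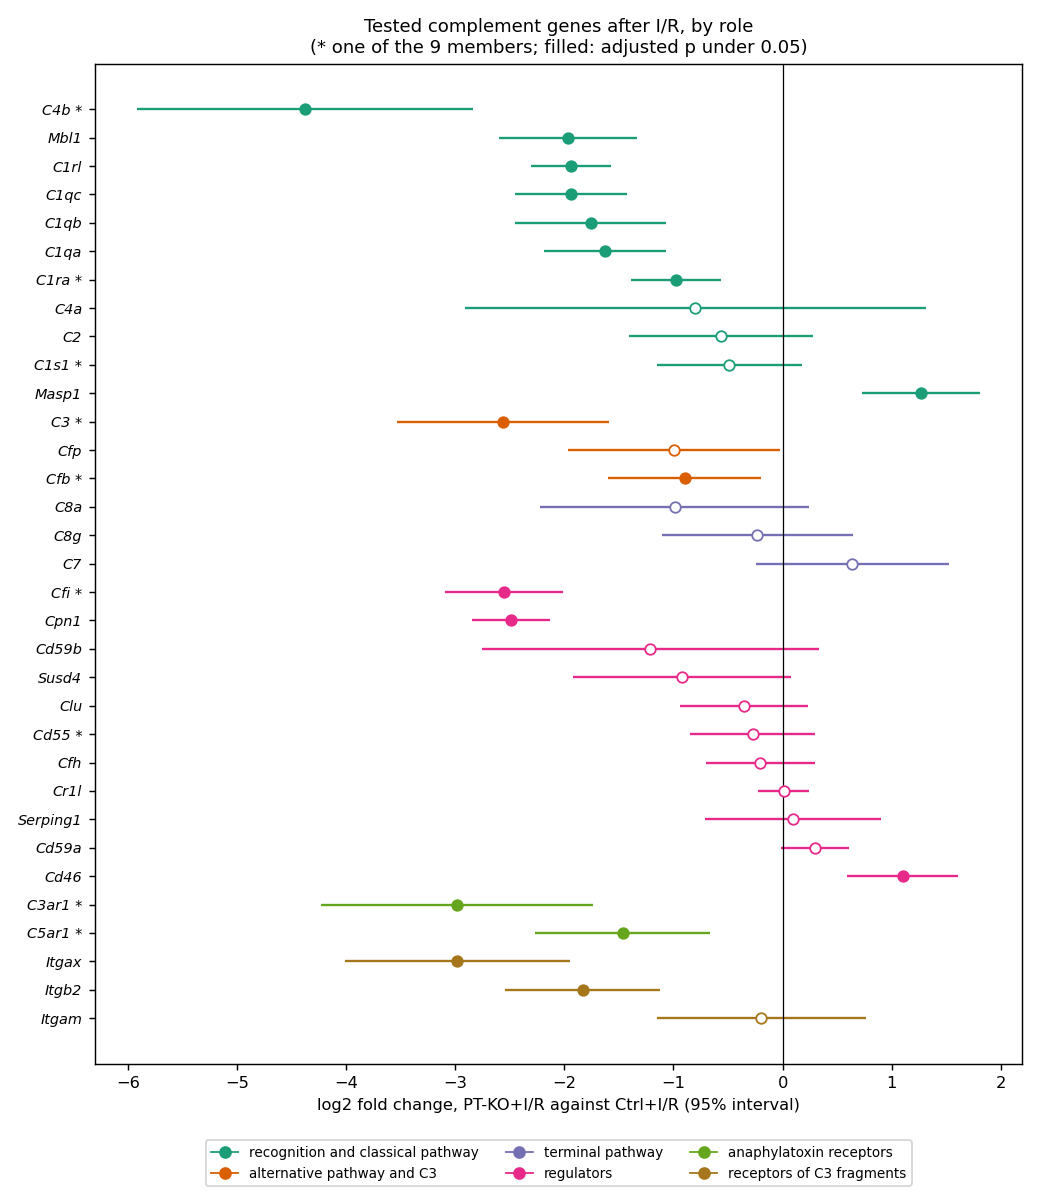
The log2 fold change of PT-KO+I/R kidneys against Ctrl+I/R kidneys is plotted for all tested complement genes, grouped and coloured by role, with unadjusted 95% intervals as lines, an asterisk at the 9 genes described here and filled points for an adjusted p under 0.05. Points run from -4.38 for C4b to 1.27 for Masp1, and 7 of the 9 genes and 8 of the 24 others are called lower.

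Marker lists of cell types were measured in the same libraries, since several of the 9 genes are known from leukocytes. The summed level of 10 macrophage markers was 86.5 to 114 CPM in Ctrl and 121 to 207 CPM in Ctrl+I/R kidneys, against 94.1 to 96.9 CPM in PT-KO and 60.9 to 69.0 CPM in PT-KO+I/R kidneys, and 7 markers were called lower and 1 higher (Cd68) in PT-KO+I/R than Ctrl+I/R kidneys. Of these 10 genes, 3 encode C1q. For this sum, the order of the group medians and the top library, Ctrl+I/R 1, were those of C4b, Cfi and C3ar1. Ctrl and PT-KO overlapped in the sum and in each of these genes, so that their order is not separated. Single markers went other ways. Csf1r was lower in Ctrl+I/R than in sham kidneys without overlap, and Cd68 and the low-count marker Cd163 were highest in PT-KO+I/R. The 8 neutrophil markers summed to 1.46 to 2.33 CPM in Ctrl and 9.49 to 41.6 CPM in Ctrl+I/R kidneys, against 0.92 to 2.71 CPM in PT-KO and 54.8 to 82.9 CPM in PT-KO+I/R kidneys, with Ly6g, Mpo and Elane at no more than 3 counts. C5ar1 was thus lower in the group where 3 of the 5 tested neutrophil markers were called higher.

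The 8 proximal tubule markers summed to 13523 to 14160 CPM in Ctrl and 3626 to 8797 CPM in Ctrl+I/R kidneys, against 12694 to 14380 CPM in PT-KO and 2277 to 2876 CPM in PT-KO+I/R kidneys, with 5 called lower in PT-KO+I/R than Ctrl+I/R kidneys. As for Cfb, the I/R groups were below the sham groups and PT-KO+I/R was the lowest. The 6 fibroblast and pericyte markers summed to 178 to 245 CPM in Ctrl and 563 to 744 CPM in Ctrl+I/R kidneys, against 123 to 208 CPM in PT-KO and 153 to 265 CPM in PT-KO+I/R kidneys, and 3 of 6 were called lower in PT-KO+I/R than Ctrl+I/R kidneys, beside the same direction for C3, C4b and Cfi. The lower sum came from the collagen genes Col1a1, Col1a2 and Col3a1 (219 to 321 CPM in Ctrl+I/R and 44.3 to 75.6 CPM in PT-KO+I/R kidneys for Col3a1), while the ranges of the I/R groups overlapped for Pdgfra, Pdgfrb and Dcn. The 5 endothelial markers (367 to 374 CPM in PT-KO+I/R and 276 to 302 in Ctrl+I/R) went the other way, 3 of 5 being called higher. The 5 distal and medullary markers summed to 5300 to 7118 CPM in Ctrl and 1724 to 4143 CPM in Ctrl+I/R kidneys, against 5296 to 6135 CPM in PT-KO and 2178 to 2641 CPM in PT-KO+I/R kidneys, with 3 of 5 called lower in PT-KO+I/R. Of 7 hepatocyte markers, whose sum of 200 to 652 CPM came mostly from Apob and Ttr, Ahsg held at most 1 count, F2 at most 10 and Apoa1 at most 14 counts in any library, while Alb stood at 1.71 to 2.72 CPM in Ctrl+I/R and at 12.7 to 19.2 CPM in PT-KO+I/R kidneys, and Serpina1a reached 62.4 CPM in Ctrl+I/R library 1. Of the 4 hepatocyte markers tested between the I/R groups, 3 were called higher in PT-KO+I/R, the opposite direction to the 7 called complement genes. The part of the cell types in the differences of the 9 genes was not tested.

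**Figure D4:**
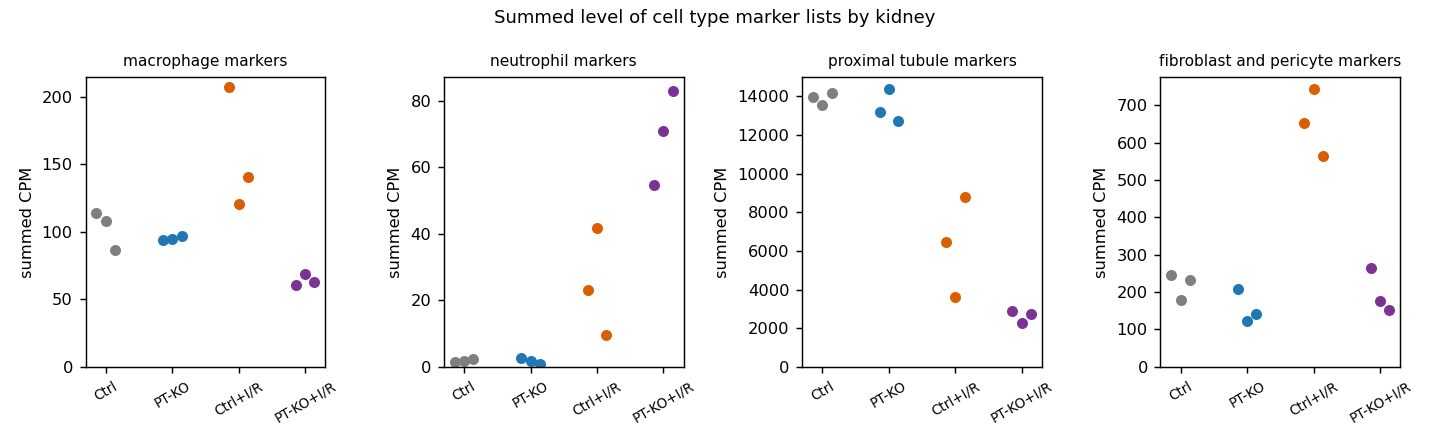
The summed level in CPM of 4 marker lists is plotted for each kidney by group. Macrophage markers lie at 121 to 207 CPM in Ctrl+I/R kidneys and at 60.9 to 69.0 CPM in PT-KO+I/R kidneys, whereas neutrophil markers lie at 9.49 to 41.6 and 54.8 to 82.9 CPM.

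For each of the 9 genes the pattern over the 12 libraries was compared with that of 10966 genes outside complement by Pearson's r of log2 CPM. The points are 12 libraries in 4 groups, which share the I/R split, so that many genes reach a high r. Most like C3 were Cnn2 (r = 0.976), Vim (0.973) and Wdhd1 (0.970). C4b was most like Coro1a (0.958), Cyth4 (0.955) and H2-DMa (0.931), and Cfi most like Elk3 (0.977), H2-DMa (0.963) and Ncapd2 (0.952), so that H2-DMa, a gene of the antigen presentation machinery, was in both lists. For C3ar1 they were Mpeg1 (0.949), Lyz2 (0.939) and Marcks (0.933), of which the first 2 are known from macrophages, and for C5ar1 Fkbp10 (0.956), Tgfbi (0.949) and Ctsc (0.945).

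The other 4 genes had other partners. Cfb was most like Slc47a1 (0.990), a transporter of the tubule, Pmpcb (0.987) and Afap1l1 (0.986), and Cd55 most like Nudt19 (0.970), Mtrex (0.966) and Glg1 (0.961). C1ra was most like Ndufaf5 (0.974), Telo2 (0.973) and Sox12 (0.959). C1s1 was most like Car2 (0.937), Cep70 (0.931) and Dkk3 (0.924).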

How the data were processed

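The authors isolated RNA, made libraries by standard Illumina protocols, sequenced them and deposited 1 table of read counts per gene. Per the labels, HISAT2 2.0.4 and the mm10 genome were used, and the count program, its annotation and its use of strand are not given in the sources used here. The labels name both an RNeasy kit and Trizol for the extraction. The deposited counts are whole numbers, neither normalized nor filtered. Replicates were read as separate samples of a group, since the labels name no animals, so that p-values measure the spread between these samples. With 3 against 3, an exact permutation test cannot give a p under 0.1, so that single genes rest on edgeR's model.

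The whole table was filtered (filterByExpr), scaled (TMM) and fitted in edgeR 4.0.16 under R 4.3.3, with its quasi-likelihood F test, on the 6 libraries of a comparison or, for the interaction, on all 12. Calls needed an adjusted p under 0.05 (Benjamini-Hochberg, over all genes of the fit). The SE is the absolute log2 fold change over the square root of F. Levels in CPM are counts over the TMM-scaled library size over all 12 libraries, and per kb of GENCODE M21 exon length where genes are compared. Shared sequence was counted in 50-base exon windows. The pairing of equal replicate numbers was checked on residuals (median correlation -0.022 over 12 pairs, 1 over 0.1) and not used.

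Beside the 9 genes, the text names the 6 other complement genes with the largest change among those called in each comparison, the near copies of members, and the 3 genes most like each member among those with a mean of at least 100 counts (log2 of CPM + 0.1). Cd46 is named for its opposite direction between the I/R groups. The members, gene lists and tests were chosen with earlier results of these data known. Alternatives were DESeq2 1.42.0, its size factors in edgeR, total counts, no filter, a minimum of 10 counts in each library, 1 fit of the whole set, a replicate block, sex (read from Xist and Y-linked counts) as a covariate and each library left out. The scripts were tested on simulated data.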

Additional observations from a re-analysis of the deposited data

Results flagged for a closer look

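By the interaction test of edgeR at an adjusted p under 0.05, the effect of I/R differed between the genotypes in 6 of the 9 genes. It also did in 10 of 27 other complement genes, 8 lower and 2 higher. Of all tested genes, 30.6% were called. On the log2 scale, the I/R effect in PT-KO mice minus that in control mice was -4.23 for C4b, -2.58 for C3ar1, -2.12 for Cfi, -1.91 for C5ar1, -1.45 for Cfb and -0.65 for C1ra. With sex as a covariate, which leaves 1 sham control library, C3ar1, C5ar1, Cfb and C1ra lost the call, and without single libraries C1ra lost it in 9, C5ar1 in 7 and C3ar1 in 3 of 12 fits. Cfi rose with I/R in control mice and fell in PT-KO mice, both past the test, whereas C4b and C3ar1 rose in control mice and did not pass it in PT-KO mice (-0.66 and -0.78 log2). In the 6 other complement genes with the largest called difference it was -3.57 for Itgax, -2.32 for Mbl1, -2.14 for C1rl, -1.92 for C1qb, -1.81 for Itgb2 and -1.70 for C1qc. C1qb and C1qc are also among the macrophage markers, whose summed level was higher in Ctrl+I/R and lower in PT-KO+I/R than in sham kidneys. Within that list, Csf1r was lower in Ctrl+I/R than in sham kidneys, and Cd68 was highest in PT-KO+I/R. The part of macrophages in these differences was not tested.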

How the results depend on the processing

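Of the values of single named genes under the alternatives, 1047 kept their direction and their side of the threshold, 66 lost the call, 33 gained it and 9 changed sign. With I/R in control mice, the genes called (3019) became 4938 in 1 fit to all 12 libraries and 379 to 4061 when single libraries were left out (Ctrl 1 gave 379, Ctrl 2 gave 413, Ctrl+I/R 1 gave 833 and Ctrl+I/R 2 gave 1635), and members 2 to 6 in place of 5. Between PT-KO and Ctrl, genes called were 458 with DESeq2, 1 with total counts, 388 with no filter and 0 to 1930 without single libraries (1930 without Ctrl library 3), and members 1 with DESeq2, 1 with no filter and 0 to 4 without single libraries. For the interaction, sex as a covariate gave 3233 genes and 3 members, and single left-out libraries gave 3622 to 5509 genes and 3 to 7 members. Total counts changed the split of higher and lower calls from 1778 and 1241 to 2346 and 766 with I/R in control mice (median shift 0.11 log2), from 3444 and 3725 to 1978 and 5080 between the I/R groups, and from 2305 and 2648 to 1591 and 2997 for the interaction. The cause was not tested.

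The sign turned for some values that were not called. Between the I/R groups this held for Cd55 (-0.42 to 0.033 without single libraries) and C4a (-0.80, or -1.44 to 0.10), which turned without Ctrl+I/R library 1. Between PT-KO and Ctrl it held for C4b (-0.65 to 0.20, and 0.089 without Ctrl library 2), Cfi (0.099 with sex as a covariate) and Gfer (-0.034 to 0.33, and -0.035 with that covariate). The interaction of C1s1 was 0.13 with the replicate block and -0.56 to 0.052 without single libraries.

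Although the check on residuals cannot exclude a pairing, the replicate number was not used as one. As a block it gave 1683 genes and 4 members (C3, C4b, Cfi and C3ar1) between the I/R groups, 1378 genes and 3 members (C3, Cfb and Cd55) between PT-KO and Ctrl, and 3215 genes and 3 members (C3, Cfb and Cfi) for the interaction.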

Other observations

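Cfd, which encodes factor D, the protease that cleaves factor B, had too few counts to be tested in any comparison and is named because of its values. It stood at 28.2 CPM in Ctrl library 1 and at no more than 1.78 CPM in the other 11 libraries. The fat cell genes Adipoq and Plin1 stood at 5.83 and 5.93 CPM in that library and at no more than 0.312 and 0.801 CPM in the others. Of the other fat cell genes measured, Fabp4 (84.2 CPM) and Cidec (4.72 CPM) were above all libraries but the PT-KO+I/R kidneys, where they stood at 98.8 to 103 and 6.77 to 9.48 CPM. Cfd is known as a product of fat cells, and whether fat tissue was in that sample was not tested.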
